A study of Mus musculus with 6 samples.

Results

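Photoreceptor fate and cone genes were followed through the embryonic mouse retina as a list of 10 genes out of 27998 in the count matrix. The list was Otx2, Crx, Thrb, Rxrg, Prdm1, Nrl, Gngt2, Rcvrn, Pde6h and Gnb3, and each gene was read in every library and in every cell type of the authors' annotation. The data were single-cell RNA-seq of retinal cells at embryonic day 14, made with the 10x Genomics 3' v2 chemistry, which counts unique molecular identifiers (UMIs, 1 per captured transcript). There were 6 libraries in 3 groups of 2, labelled Bax null, Bax het Atoh7 null (called het Atoh7 null below) and Bax null Atoh7 null (called double null below). Bax is an effector of programmed cell death, and Atoh7 is a transcription factor held to give progenitors the competence to become ganglion cells. Libraries with the Atoh7 null label still held 667 to 1153 cells each that the authors labelled retinal ganglion cells. Every group carried a mutant Bax allele, so no library stands for the wild type, and the labels of the Bax null group do not mention Atoh7. Double null against Bax null therefore asks what the absence of Atoh7 changes where Bax is also absent, and double null against het Atoh7 null asks what Bax changes where Atoh7 is absent. Het Atoh7 null against Bax null differs at both loci. Strain, sex and the number of retinas per library are not given in the sources used here, and p-values measure the spread between libraries, which may be partly technical.

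Photoreceptors are born from neurogenic progenitors that switch on the homeodomain factor OTX2. OTX2 activates the related factor CRX, and CRX and OTX2 together drive most genes of the photoreceptor programme. PRDM1 (also called BLIMP1) keeps such cells from the bipolar fate, NRL directs rods, and the nuclear receptors THRB and RXRG act in cones, where they control which opsin is made. The remaining genes serve phototransduction: Gngt2 and Gnb3 encode the gamma and beta subunits of cone transducin, Pde6h the inhibitory subunit of the cone phosphodiesterase, and Rcvrn the calcium sensor recoverin. Cones are among the first retinal neurons to be born, and rods follow later.

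The 6 libraries held 67050 cells, 9269 to 14730 each, with 22463515 to 66594431 UMIs per library, and the authors' cell types were cones (3292 cells), neurogenic cells (12857), retinal ganglion cells (7357), progenitors (40882) and a horizontal label (2662). Cones gave 890484 to 1384550 UMIs per library from 257 to 799 cells. Median depth was 5660.5 and 6804 UMIs per cell in the Bax null libraries and 1634 to 2632 in the other 4, so depth cannot be told apart from the absence of Atoh7. Both Bax null libraries held Atoh7, at 5.96 and 6.88 UMIs per 1e6 UMIs (CPM), and it had 0 UMIs in the other 4. Bax itself was at 17.1 and 14.99 CPM in the Bax null group and at 144 and 108 CPM in het Atoh7 null. It stood at 47.7 CPM in the first library with the double null label and at 10.996 CPM in replicate 2, so the level in replicate 1 goes in part against its label. These 2 libraries also shared 2596 cell barcodes (17.6% and 22.0% of their cells), of which 89.5% had the same cell type in both, while the other 14 pairs of libraries shared 126 to 223. In replicate 1 Bax stood at 16.9 CPM in the cells with shared barcodes and at 51.6 CPM in the rest. In replicate 2 it stood at 8.7 and 12.4 CPM. Called changes of the listed genes between double null and another group are also given with the shared cells left out of both libraries. Leaving them out keeps the cells of replicate 1 whose Bax level goes further against the label. The wider photoreceptor genes and the differences between cell types were not computed without them. Of the shared cells, 68 and 67 were cones.

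The label of the cones was checked on the listed genes themselves, which are also the markers of cones. Of 6 such markers, 5 (Crx, Thrb, Rxrg, Gngt2 and Gnb3) were detected in the cones of every library, with a summed level of 1959.5 to 2741 CPM, against 29.8 to 47.8 CPM in ganglion-labelled cells. Pde6h had 0 UMIs in cones in all 6 libraries, which allows at most 2.17 to 3.37 CPM by library, and 2 UMIs in all cells. Rcvrn had 0 UMIs in every cell; whether the counting annotation covers its 3′ end is not given in the sources used here, so no limit on its expression is drawn from this. Markers of the retinal pigment epithelium, which also uses Otx2, summed to 2.20 to 8.98 CPM in cones. Ganglion markers gave the largest sum of another cell type there, 1365 to 1790 CPM, most of it Stmn2 (1011 to 1272 CPM). Neurogenic markers in the cones summed to 879 to 1122 CPM. Progenitor markers in the cones summed to 413 to 481 CPM in Bax null, 846 to 993 CPM in het Atoh7 null and 912 to 1134.7 CPM in double null. Hes1 alone among them was higher in Bax null, at 110 and 139 CPM against 33.8 to 46.9 CPM. Horizontal markers in the cones summed to 435 to 493 CPM in Bax null and 573 to 730 CPM in the other 4 libraries. Bipolar markers, mostly Prdm8, summed to 4.63 to 7.0045 CPM in Bax null and 13.4 to 22.4 CPM in the others. All these sums are plain CPM, on which the typical gene in cones was lower in Bax null. Divided by the TMM factors of the test described below, the horizontal sums overlapped between Bax null and the others. The progenitor and bipolar sums did not. The part of these other cells in the differences below was not tested.

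Otx2 lies on chromosome 14, Crx on chromosome 7, Prdm1 on chromosome 10, Rxrg on chromosome 1 and Gngt2 on chromosome 11. The 8 listed genes detected in cones were at their highest there in every library, and the 2 UMIs of Pde6h lay in neurogenic cells and progenitors. Otx2 reached 1091 to 1690 CPM in cones, 162 to 361 CPM in neurogenic cells, 31.3 to 108 CPM under the horizontal label, 10.8 to 48.2 CPM in ganglion-labelled cells and 10.1 to 20.7 CPM in progenitors. The ranges of the first 2 classes stood apart from each other and from the rest, and the lower 3 overlapped in their order. Prdm1 stood at 245 to 434 CPM in cones and 24.3 to 33.3 CPM in neurogenic cells, and at 0.436 to 2.14 CPM in progenitors. Under the horizontal label Prdm1 ranged from 4.97 to 53.6 CPM, a range that holds the whole neurogenic one.

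Crx stood at 266 to 430 CPM in cones and between 0.917 and 20.2 CPM in every other class, with overlapping ranges there. Cones held 70.0% to 78.7% of all Crx UMIs and 30.1% to 44.1% of all Otx2 UMIs. Nrl, the rod factor, stood at 29.3 to 61.8 CPM in cones and at most 4.30 CPM in any other class. Thrb, the cone thyroid hormone receptor, stood at 222 to 465 CPM in cones, 11.5 to 28.7 CPM in ganglion-labelled cells, 8.23 to 15.4 CPM in neurogenic cells and 3.29 to 6.36 CPM in progenitors. Rxrg stood at 103 to 192 CPM in cones and at 0.439 to 15.8 CPM in ganglion-labelled cells. Gngt2 stood at 766 to 1619 CPM and Gnb3 at 110 to 291 CPM in cones, against at most 25.4 and 8.72 CPM in any other class.

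**Figure D1:**
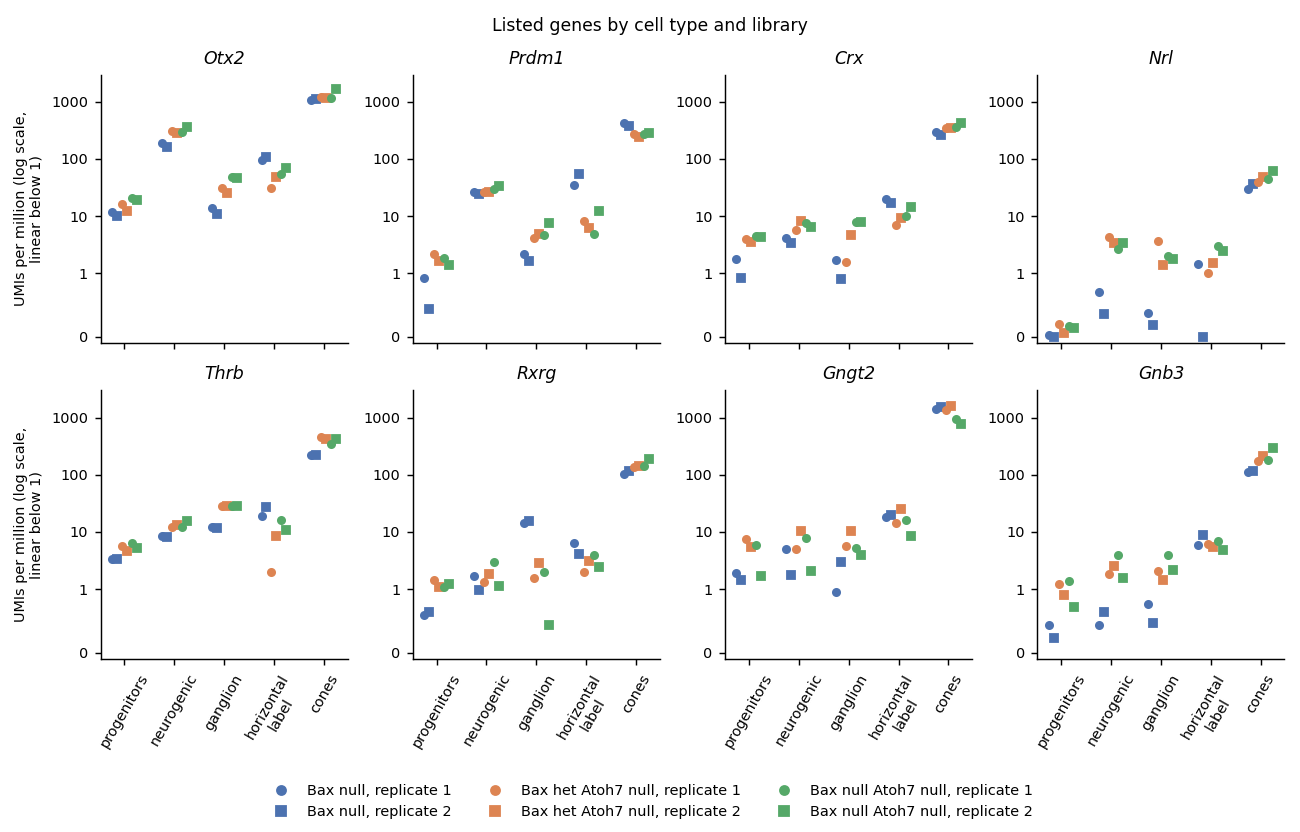
Level of each of 8 listed genes (CPM, log axis that is linear below 1) in 5 cell types; each point is 1 library, coloured by group, with circles for replicate 1 and squares for replicate 2. Cones are highest for every gene, Otx2 comes next in neurogenic cells, and Rxrg in ganglion-labelled cells separates the Bax null libraries (14.4 and 15.8) from the other 4 (0.439 to 2.84).

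Sequences before the transcription starts are shown for Crx and Thrb because they hold the core motif TAATCC bound by OTX2 and CRX, and Thrb also the nuclear receptor half-site AGGTCA. They are the 250 bases before the start in RefSeq (build GRCm38.p6), read 5′ to 3′ on the gene's strand, with matches on either strand in capitals, so that GGATTA is TAATCC on the other strand.
Crx chr7:15879956-15880205, minus strand: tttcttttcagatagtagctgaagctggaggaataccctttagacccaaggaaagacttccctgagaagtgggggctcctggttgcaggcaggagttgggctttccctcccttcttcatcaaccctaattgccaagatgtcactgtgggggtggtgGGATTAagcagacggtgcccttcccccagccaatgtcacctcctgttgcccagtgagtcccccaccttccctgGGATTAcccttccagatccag
Thrb chr14:17660710-17660959, plus strand: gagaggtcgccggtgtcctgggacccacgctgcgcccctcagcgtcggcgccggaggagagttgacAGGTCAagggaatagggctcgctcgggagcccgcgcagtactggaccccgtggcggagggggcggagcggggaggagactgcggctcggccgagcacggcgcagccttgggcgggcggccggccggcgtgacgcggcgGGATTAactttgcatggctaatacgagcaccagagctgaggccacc
Crx lies on chromosome 7 and Thrb on chromosome 14, and each stretch ends at the start of a RefSeq transcript. By the GENCODE gene spans, which end for Crx at 15879968 and begin for Thrb at 17660261, the Crx stretch overlaps its gene by a few bases and the Thrb stretch lies inside its gene. The Crx stretch held TAATCC at 94 and 21 bases before the start, and the Thrb stretch held TAATCC at 46 bases and AGGTCA at 184 bases before the start. Promoters were matched for 7 of the 10 genes, 12 promoters in all. Of these 12, 3 held TAATCC (that of Crx, 1 of 2 of Thrb and 1 of 4 of Otx2), against 6.25% of 32851 promoters of the same length. AGGTCA was found in 2 of the 12 (1 of 2 of Thrb and 1 of 2 of Rxrg) and in 14% of all promoters. The 2 motifs did not overlap each other. A match is a description of the letters in this window.

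Within cones, Prdm1, which guards photoreceptor fate, was lower in both Atoh7 null groups, and Gngt2, the gamma subunit of cone transducin, was lowest in double null. In double null cones Gngt2 and Prdm1 fell relative to Bax null, and the other 6 tested genes of the list did not pass. Values are given here as TMM-scaled CPM, the scale of the test, which sets the bulk of genes equal between libraries; on library totals the median log2 change over all genes tested in cones was 0.59 for double null against Bax null, 0.48 for het Atoh7 null against Bax null and 0.10 for double null against het Atoh7 null, and other cell types shifted alike. With TMM, 44.5% to 50.9% of calls against Bax null were higher over cones, neurogenic cells, ganglion-labelled cells and all cells, and on library totals 84.8% to 89.5%. In double null against het Atoh7 null the share in ganglion-labelled cells moved from 10.5% to 33.5%. Every fold change below is therefore relative to the typical gene.

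Prdm1 stood at 551 and 483 in cones of Bax null, at 255 and 230 in het Atoh7 null and at 244 and 237 in double null. Both Bax null libraries lay above all 4 Atoh7 null libraries. The log2 change was -1.10 ± 0.13 (SE) in double null (edgeR quasi-likelihood test, adjusted p = 1.4e-06) and -1.09 ± 0.13 in het Atoh7 null (adjusted p = 1.8e-06). Between the Atoh7 null groups Prdm1 differed by -0.01 ± 0.13 (adjusted p = 0.99). On library totals the 2 differences from Bax null were -0.55 and -0.64, and without the shared cells -1.02 in double null, all still called.

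Gngt2 stood at 1799 and 1931 in Bax null, at 1259 and 1517 in het Atoh7 null and at 835 and 644 in double null. The 3 groups did not overlap. The log2 change from Bax null to double null was -1.33 ± 0.16 (adjusted p = 2.6e-06), and it was -0.78 on library totals and -1.25 without the shared cells, both called. Against het Atoh7 null, double null cones were lower in Gngt2 by a log2 change of -0.91 ± 0.16 (adjusted p = 0.0030), -0.83 without the shared cells. That call was lost without het Atoh7 null replicate 2 (-0.77, adjusted p = 0.076) and when each library's progenitors were subtracted (-0.16, adjusted p = 1). From Bax null to het Atoh7 null Gngt2 changed by -0.43 ± 0.16 with an adjusted p of 0.0499, a call that 12 of 18 alternatives lost and 6 kept. Over the alternatives this change ran from -1.80 to 0.03, the latter on library totals.

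Thrb stood at 281 and 286 in Bax null, at 431 and 396 in het Atoh7 null and at 304 and 356 in double null. The 3 groups did not overlap, with het Atoh7 null highest. Thrb rose in het Atoh7 null against Bax null by 0.54 ± 0.13 (adjusted p = 0.0036), 1.0 on library totals. The call was lost without Bax null replicate 1 (adjusted p = 0.069) or replicate 2 (adjusted p = 0.062), and against the progenitors of each library (adjusted p = 0.078). In double null the difference was 0.21 ± 0.13 (adjusted p = 0.24), and between the Atoh7 null groups it was -0.33 ± 0.13 (adjusted p = 0.35).

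Otx2 and Crx did not pass the main test in cones in any comparison. Otx2 stood at 1385 and 1421 in Bax null, 1145 and 1086 in het Atoh7 null and 1042 and 1422 in double null, with changes from Bax null of -0.19 ± 0.16 in double null and -0.33 ± 0.16 in het Atoh7 null. Crx stood at 373 and 340, 317 and 321, and 332 and 362, and its changes were -0.04 ± 0.12 and -0.16 ± 0.12. Neither did the cone receptor Rxrg, at 131 and 149, 125 and 133, and 126 and 162, nor the rod factor Nrl, at 37.3 and 45.9, 36.4 and 45.3, and 40.2 and 52.0. Gnb3 stood at 140 and 151 in Bax null, 160 and 201 in het Atoh7 null and 160 and 245 in double null, where its change was 0.45 ± 0.18 (adjusted p = 0.060). On library totals Crx, Gnb3, Nrl, Rxrg and Thrb were called higher in double null than in Bax null, by 0.51, 1.01, 0.68, 0.58 and 0.77, so these calls rest on the scaling. Of these 5 genes Crx alone also had the opposite sign with TMM. Over all alternatives Crx ran from -1.07 to 0.51 in double null against Bax null, with 2 of 18 called. In het Atoh7 null against Bax null it ran from -1.03 to 0.29, with 1 of 18 called. For Otx2 the same ranges were -0.43 to 0.37 (2 of 18 called) and -0.37 to 0.13 (3 of 18 called).

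In counts, 2 of 8 tested listed genes were called in cones between double null and Bax null, where 28.1% of all 9421 genes tested were called. Between het Atoh7 null and Bax null 3 of 8 were called (all genes, 27.5%), and between the Atoh7 null groups 1 of 8 (all genes, 1.46%). The first 2 comparisons share the Bax null libraries. Rcvrn and Pde6h did not reach the filter on low counts.

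**Figure D2:**
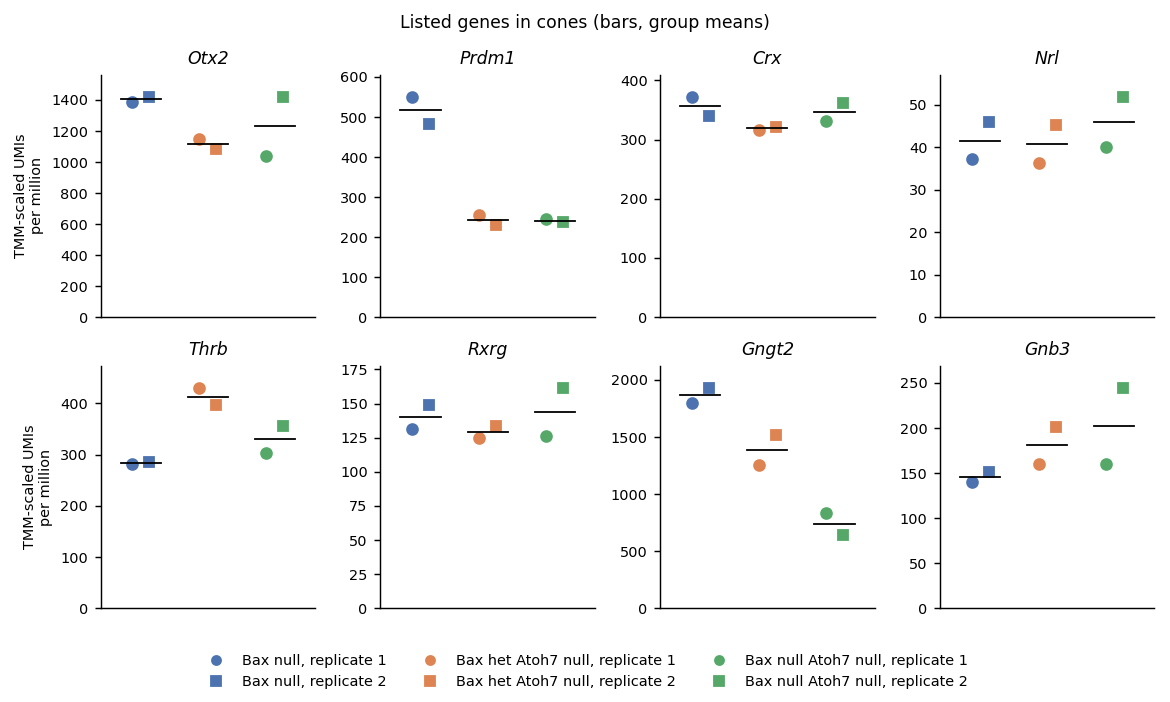
TMM-scaled level of 8 listed genes in cones (CPM, axes from 0); each point is 1 library and each bar a group mean. Both Bax null libraries lie highest for Prdm1 (551 and 483) and Gngt2 (1799 and 1931), het Atoh7 null lies highest for Thrb (431 and 396), and Crx, Rxrg and Nrl passed the test in no comparison.

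The share of cones with a Gngt2 UMI was lowest in the double null libraries and alike in the other 4. With each cell thinned to 1000 UMIs, 55.7% and 55.5% of cones had a Gngt2 UMI in Bax null, 55.1% and 56.2% in het Atoh7 null and 43.0% and 37.1% in double null (unthinned 69.8% and 69.3%, 64.0% and 63.2%, 54.7% and 51.2%). Progenitors thinned to the same depth had a Gngt2 UMI in 0.0562% to 0.752% of cells. Prdm1 was seen in 33.3% and 34.4% of thinned cones in Bax null and in 22.6% to 24.6% in the other 4 libraries (unthinned 76.7% and 72.4% against 30.0% to 44.6%). Thinning left out cones under 1000 UMIs, up to 194 of 641 in a library, double null replicate 2. Every het Atoh7 null cone had at least 1071 UMIs, so none was left out there. In double null replicate 2 the authors' cone clusters 21 and 82, which are high in Gngt2, had median depths of 954 and 1068 UMIs. The other cone clusters of that library had medians of 1257 to 1423 UMIs. The part of this uneven loss in the thinned shares was not tested.

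The 5 cone clusters of the authors' annotation differed in these genes among themselves. Pooled over libraries, Gngt2 ran from 18.2 CPM in cluster 98 through 268 in cluster 18 and 1128 in cluster 15 to 2784 in cluster 82 and 2802 in cluster 21. Thrb ran from 107 to 583 CPM and Gnb3 from 23.2 to 353 CPM over the same clusters, both lowest in cluster 98 and highest in cluster 21 when pooled. Within single libraries Gngt2 and Gnb3 were each higher in cluster 82 than in cluster 21 in 3 of 6. Otx2 varied less, from 940 CPM in cluster 98 to 1666 in cluster 82, and Prdm1 ran from 230 to 388 CPM. The clusters were made on these cells, so their own differences are a description with no test.

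Inside the clusters, Gngt2 was lower in both double null libraries than in both het Atoh7 null libraries in 4 of 5 clusters, all but cluster 98. In cluster 21 its level was 3401 and 3367 CPM in Bax null, 2840 and 3675 in het Atoh7 null and 1946 and 1451 in double null. In cluster 82 the values were 3184 and 3419, 2830 and 3550.4, and 2048 and 1558. Against both Bax null libraries, double null was lower in 3 of 5 clusters, and het Atoh7 null was higher in 3 of 5 and lower in 0. Cluster 98 had at most 8 Gngt2 UMIs in any library. Prdm1 was higher in both Bax null libraries than in both het Atoh7 null libraries in 5 of 5 clusters and than in both double null libraries in 4 of 5. Thrb was lower in both Bax null libraries than in all 4 others in 5 of 5 clusters, and so was Crx, which did not pass the main test with TMM. These are plain CPM, without the TMM scaling, on which the typical gene in cones was lower in Bax null. A value rests on as few as 28 cells.

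**Figure D3:**
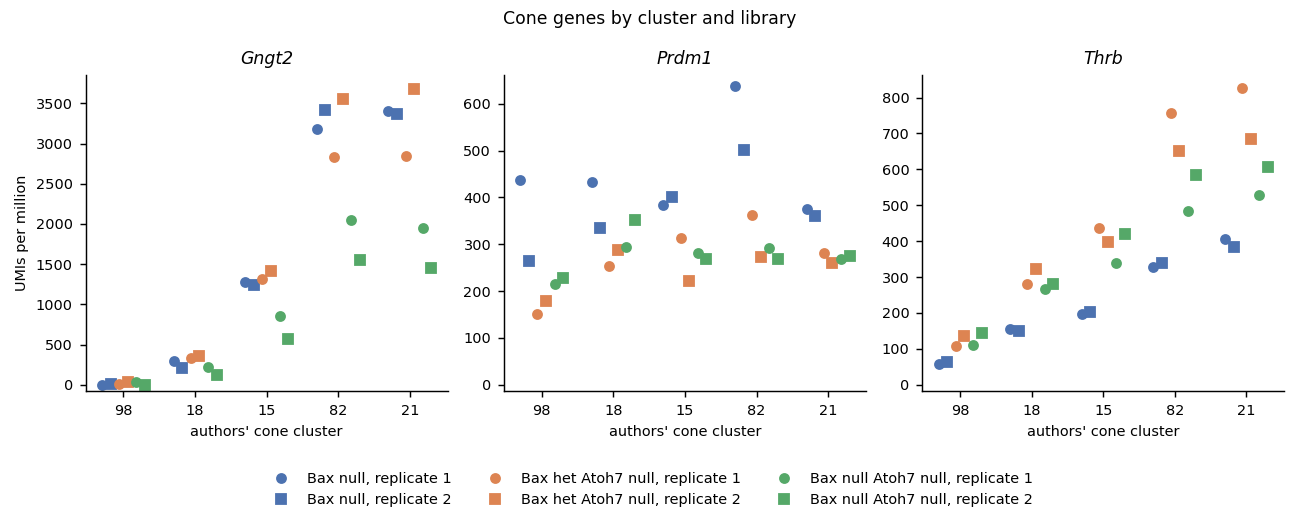
Gngt2, Prdm1 and Thrb in each of the 5 cone clusters of the authors (CPM, linear axis), with 1 point per library. Gngt2 and Thrb are lowest in cluster 98, the double null libraries lie lowest for Gngt2 in clusters 15, 82 and 21, and the Bax null libraries lie lowest for Thrb in every cluster. Values are plain CPM, on which the typical gene in cones is lower in Bax null.

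The cells that the authors named neurogenic carried most of the Otx2 outside cones. They held 43.9% to 54.0% of all Otx2 UMIs of a library. Thinned to 1000 UMIs, 14.1% to 24.5% of neurogenic cells had an Otx2 UMI (31.3% to 38.2% unthinned), against 0.787% to 2.04% of progenitors (3.06% to 6.45% unthinned). In 12.1% to 21.7% of the thinned neurogenic cells Otx2 came without any other listed gene, and only 1.78% to 2.94% had UMIs of 2 or more listed genes. In cones the share with 2 or more was 67.6% to 73.7%.

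Otx2 was uneven over the 27 clusters of neurogenic cells. Clusters 87, 120 and 3, taken because their Otx2 is the highest of the 27, held 1756 of 12857 cells and 38.7% of the neurogenic Otx2 UMIs, and the other clusters held 61.3%. The share in the 3 clusters was 31.6% and 27.0% in Bax null and 43.15% to 47.1% in the other 4 libraries. These 3 clusters made up 8.84% and 6.53% of neurogenic cells in Bax null and 14.2% to 17.05% in the others. Their Otx2 stood at 903, 847 and 736 CPM, near the 940 CPM of cone cluster 98. Prdm1 stood at 88.7, 47.0 and 64.2 CPM there, and at 21.9 CPM in the other neurogenic clusters. Crx and Gngt2 did not share this pattern: Crx had 12 UMIs in the 3 clusters together (2.22 CPM) against 5.73 CPM in the other neurogenic clusters, and Gngt2 stood at 5.36 CPM against 4.70 CPM. Nrl stood at 3.88 CPM against 1.58 CPM, with 10.2 CPM in cluster 87. Cluster 87 had 5 cells in each Bax null library and cluster 120 had 2 in replicate 1, while cluster 3 had 140 and 106, with Otx2 at 801 and 798 CPM.

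In neurogenic cells 2 of 8 tested listed genes were called between double null and Bax null (47.3% of all genes), 3 of 8 between het Atoh7 null and Bax null (47.1%), and 0 of 8 between the Atoh7 null groups (1.77%). For the last, edgeR gave 0 listed genes with an unadjusted p under 0.05 and DESeq2 called 0. Nrl stood at 0.907 and 0.461 TMM-scaled CPM in Bax null, 3.87 and 3.10 in het Atoh7 null and 2.34 and 2.83 in double null. All 4 Atoh7 null libraries lay above both Bax null libraries. It rose by 1.92 ± 0.44 in double null (adjusted p = 0.0038, 1.90 without the shared cells) and by 2.36 ± 0.41 in het Atoh7 null (adjusted p = 0.00066). The first call was lost without Bax null replicate 2 (1.48, adjusted p = 0.059). In progenitors Nrl had 0 to 0.204 CPM, and the change measured against the progenitors of each library was -0.68 and -0.02, neither called.

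Gnb3 in neurogenic cells stood at 0.567 and 0.829 in Bax null, 1.68 and 2.32 in het Atoh7 null and 3.51 and 1.32 in double null. It rose by 1.81 ± 0.52 (adjusted p = 0.013, 2.05 without the shared cells) and by 1.48 ± 0.54 (adjusted p = 0.041), in double null and het Atoh7 null. The double null call was lost without Bax null replicate 1 (adjusted p = 0.079), Bax null replicate 2 (0.051) or double null replicate 1 (0.86, adjusted p = 0.36). The het Atoh7 null call was lost without any 1 of the 4 libraries compared (adjusted p from 0.075 to 0.23). Prdm1 stood at 34.3 and 31.5 in Bax null, 23.9 and 24.3 in het Atoh7 null and 26.8 and 27.7 in double null. It fell by 0.45 on the log2 scale in het Atoh7 null (SE 0.11, adjusted p = 0.0066), a call lost without Bax null replicate 1 (adjusted p = 0.064). Its plain CPM overlapped between these groups, at 26.7 and 24.3 against 26.5 and 26.7, and the change was 0.06 on library totals. Inside the 3 clusters highest in Otx2 plain Prdm1 differed. Bax null gave 94.2 and 87.3 CPM there, het Atoh7 null 58.0 and 43.7 CPM and double null 64.3 and 64.4 CPM. In the other neurogenic clusters the values were 21.3 and 20.7, 19.6 and 22.7, and 23.6 and 27.1 CPM. Of the neurogenic cells, 8.84% and 6.53% in Bax null and 16.7% and 17.05% in het Atoh7 null lay in those 3 clusters. No test was run inside clusters. Otx2 itself stood at 247 and 210, 277 and 256, and 257 and 301, with a change of 0.29 ± 0.12 in double null (adjusted p = 0.057), and did not pass. Markers of other cells moved with these groups: in neurogenic cells ganglion markers summed to 324 to 333 CPM in Bax null and 678 to 871 CPM in the other 4 libraries. Horizontal markers summed to 151 to 183 against 314 to 364 CPM, cone markers to 15.04 to 19.8 against 26.2 to 36.2 CPM, and the neurogenic markers themselves to 2619 to 2972 against 4772 to 5883 CPM. These marker sums are plain CPM. Divided by the TMM factors, the cone marker sums in neurogenic cells overlapped between Bax null and the others, and the other 3 sums did not. The part of these other cells in the changes of Nrl, Gnb3 and Prdm1 was not tested.

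Ganglion-labelled cells showed the largest called change of a listed gene among the 3 cell types tested. Rxrg had 151 and 172 UMIs there in the Bax null libraries, 3 and 8 in het Atoh7 null and 5 and 1 in double null. As plain CPM with 95% Poisson intervals of counting, these were 14.4 (12.2 to 16.9) and 15.8 (13.5 to 18.3), 1.57 (0.323 to 4.58) and 2.84 (1.23 to 5.60), and 1.99 (0.646 to 4.64) and 0.439 (0.0111 to 2.45). The groups with and without Atoh7 did not overlap, and the progenitors stood at 0.596 to 1.43 CPM. The log2 change was -4.16 ± 0.38 in double null (adjusted p = 1.9e-06, -4.34 without the shared cells) and -3.17 ± 0.33 in het Atoh7 null (adjusted p = 8.0e-06), and both were called in 18 of 18 alternatives. Without double null replicate 1 the first change was -5.64, and without replicate 2 it was -3.49.

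In Bax null these UMIs lay in few ganglion clusters. Cluster 121 held 99 of the Bax null Rxrg UMIs in 163 cells (69.2 CPM), cluster 70 held 73 in 180 cells (49.5 CPM), cluster 75 held 41 in 245 cells (20.8 CPM) and cluster 89 held 37 in 85 cells (56.7 CPM). In the same order these clusters held 0, 2, 7 and 4 cells of het Atoh7 null and 4, 13, 23 and 3 cells of double null, too few to compare levels inside them. Fewer cells of such a kind and less Rxrg per cell cannot be told apart by a sum over ganglion-labelled cells.

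**Figure D4:**
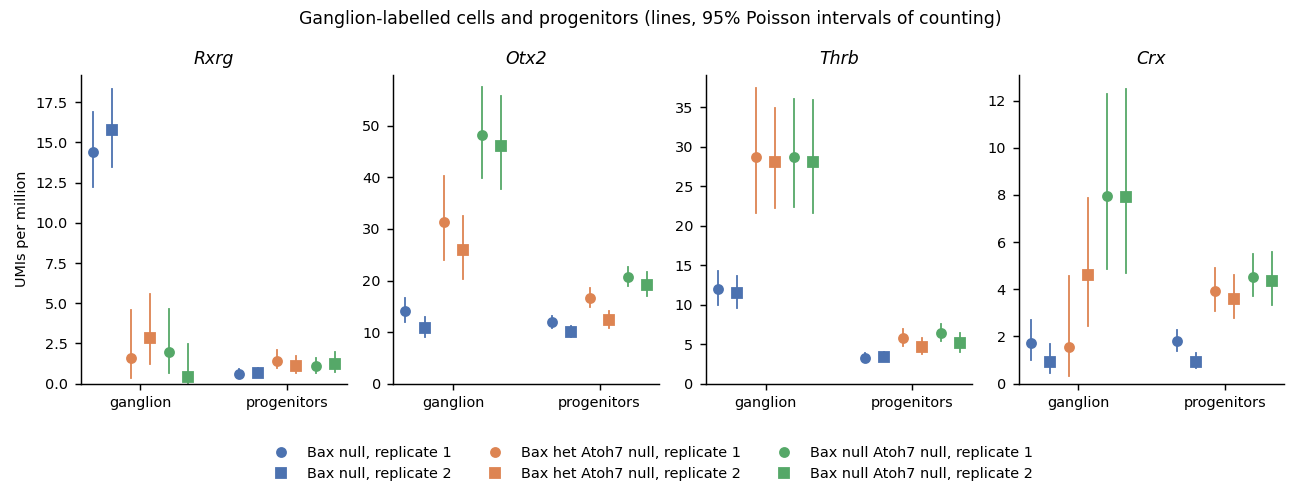
Rxrg, Otx2, Thrb and Crx in ganglion-labelled cells and in progenitors (CPM, linear axis); points are libraries and lines are 95% Poisson intervals that cover counting error only. Rxrg is high in the Bax null ganglion-labelled cells alone, while Otx2 and Thrb are higher in the ganglion-labelled cells of the 4 Atoh7 null libraries than in those of Bax null.

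Other photoreceptor factors moved the opposite way under the ganglion label. Otx2 stood at 18.1 and 14.1 TMM-scaled CPM in Bax null, 28.8 and 24.0 in het Atoh7 null and 41.8 and 38.4 in double null, and the 3 groups did not overlap. It rose by 1.31 ± 0.15 in double null (adjusted p = 1.6e-05, 1.15 without the shared cells) and by 0.69 ± 0.17 in het Atoh7 null (adjusted p = 0.0056). The second call was lost without het Atoh7 null replicate 1 (adjusted p = 0.053) or Bax null replicate 2 (adjusted p = 0.051). Measured against the progenitors of each library, Otx2 still rose, by 1.11 and 0.87. Thrb stood at 15.3 and 14.97, 26.4 and 26.0, and 24.8 and 23.4, and rose by 0.67 ± 0.15 in double null (adjusted p = 0.0019, 0.69 without the shared cells) and by 0.79 ± 0.15 in het Atoh7 null (adjusted p = 0.00074). The Thrb call in double null was lost with libraries thinned to the smallest total (adjusted p = 0.074) and against the progenitors (adjusted p = 0.086).

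Crx in ganglion-labelled cells stood at 2.20 and 1.198 in Bax null, 1.44 and 4.27 in het Atoh7 null and 6.90 and 6.58 in double null. It rose in double null by 1.98 ± 0.41 (adjusted p = 0.0014), by 1.65 without the shared cells, and by 0.92 against the progenitors of each library, which was not called (adjusted p = 0.14). Prdm1 rose there by 1.04 ± 0.35 (adjusted p = 0.025), a call lost without the shared cells (0.84, adjusted p = 0.098), without either Bax null library (adjusted p = 0.051 and 0.15) and without double null replicate 2 (adjusted p = 0.27). Gngt2 rose in het Atoh7 null by 1.56 ± 0.47 (adjusted p = 0.015), and this was 0.19 against the progenitors, where Gngt2 stood at 1.41 to 1.92 plain CPM in Bax null and 5.42 to 7.49 CPM in het Atoh7 null. Without het Atoh7 null replicate 2 (adjusted p = 0.32) or Bax null replicate 1 (adjusted p = 0.084) the Gngt2 call was lost.

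Among the 6 listed genes tested under the ganglion label, 5 were called in double null against Bax null (52.7% of all genes) and 4 in het Atoh7 null against Bax null (50% of all genes). Between the Atoh7 null groups edgeR called 0 of 6 (2.34% of all genes), Crx and Otx2 had an unadjusted p under 0.05, and DESeq2 called 0. Markers of other cells moved with these groups. Progenitor markers in the ganglion-labelled cells summed to 288 to 432 CPM in Bax null and 868.2 to 1138.7 CPM in the other 4 libraries, while Hes1 alone among them was higher in Bax null, at 103 and 70.6 CPM against 21.5 to 45.0 CPM. Neurogenic markers summed to 912 to 946 against 1553 to 1837 CPM, and bipolar markers to 12.7 to 15.6 against 65.3 to 97.6 CPM. That last sum was almost all Prdm8, at 14.3 and 11.9 CPM in Bax null and 64.2 to 94.9 CPM in the others, and the bipolar genes Grm6 and Cabp5 were at 0. The ganglion markers themselves summed to 12918 to 13456 CPM in Bax null and 8624 to 11380 CPM in the others. Sncg differed most among them, at 2143 and 2361 CPM against 136 to 225 CPM. In plain CPM, Stmn2 (3339 and 3403 against 3896 to 4748 CPM) and Nefm (1168 and 1171 against 1209 to 1857 CPM) were lower in Bax null. All these marker values are plain CPM, before TMM factors of 0.783 and 0.768 in Bax null and 1.08 to 1.21 in the others. Divided by those factors, Stmn2 was higher in Bax null and the libraries overlapped for Nefm. The part of these other cells in the changes of Otx2, Thrb and Crx was not tested. By a test chosen after the data were seen, the change in ganglion-labelled cells was compared with the change in cones. Of the 6 listed genes tested in both cell types it differed for 5 in double null against Bax null (10.2% of all genes). In het Atoh7 null against Bax null it differed for 4 of the 6 (9.6% of all genes). The same test also held Gnb3 and Nrl, which did not pass the filter under the ganglion label alone. Neither was called in double null (edgeR, adjusted p = 0.16 and 0.12). In het Atoh7 null Gnb3 was not called (adjusted p = 0.67) and Nrl was (adjusted p = 0.019).

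Summed over all cells of a library, more listed genes were higher without Atoh7. Crx stood at 11.1 and 8.23 TMM-scaled CPM in Bax null, 17.3 and 19.1 in het Atoh7 null and 18.3 and 18.2 in double null. The 4 Atoh7 null libraries lay above both Bax null libraries for Crx, Otx2, Thrb, Nrl and Gnb3, and all 5 rose in both comparisons. In double null the log2 changes were 0.46 for Otx2, 0.66 for Thrb, 0.92 for Crx, 1.36 for Nrl and 1.42 for Gnb3 (adjusted p from 0.00016 to 0.0043), and in het Atoh7 null 0.41, 0.97, 0.91, 1.47 and 1.42 (adjusted p from 2.8e-05 to 0.0075). Without the shared cells the double null changes of Otx2, Thrb, Crx, Nrl and Gnb3 were 0.59, 0.84, 1.07, 1.52 and 1.62. The Otx2 calls were lost without Bax null replicate 2 (adjusted p = 0.052 and 0.079). Counted over the list, 5 of 8 were called in the first comparison (56.4% of all genes) and 6 of 8 in the second (55.8%), near the share of all genes.

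Gngt2 was the sixth gene of the second comparison, at 40.8 and 36.3 in Bax null, 60.3 and 76.4 in het Atoh7 null and 39.9 and 26.5 in double null. It rose in het Atoh7 null by 0.83 ± 0.18 (adjusted p = 0.0051), did not pass in double null (-0.21 ± 0.18), and was the 1 of 8 called between the Atoh7 null groups (-1.03 ± 0.18, adjusted p = 0.039, 1.64% of all genes). That last call was lost in 8 of 17 alternatives, among them leaving out the shared cells (-0.81, adjusted p = 0.082) or any 1 of the 4 libraries of het Atoh7 null and Bax null (adjusted p from 0.079 to 0.23). Prdm1 and Rxrg did not pass in any of the 3 comparisons over all cells.

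Cell type makeup moved with these sums. Cones held 1.72% and 2.05% of UMIs in Bax null and 3.96% to 4.72% in the other 4 libraries, and ganglion-labelled cells held 16.4% and 16.6% against 6.57% to 10.1%. With the makeup of every library set to the mean of the Bax null libraries, Gngt2 stood at 29.4 and 30.6 plain CPM in Bax null, 32.3 and 38.0 in het Atoh7 null and 23.9 and 16.7 in double null, where the unadjusted values were 31.7 and 28.0, 66.1 and 83.9, and 44.9 and 32.5. Crx at that makeup stood at 8.16 and 6.76, 10.3 and 11.2, and 12.7 and 13.6 in the same order. Its unadjusted values were 8.61 and 6.35, 19.0 and 20.9, and 20.6 and 22.4. These are plain CPM, on which the typical gene over all cells was lower in Bax null. Divided by the TMM factors over all cells, Gngt2 at that makeup was lower in both het Atoh7 null libraries than in both Bax null libraries. Crx at that makeup then overlapped between het Atoh7 null and Bax null, and remained higher in double null than in Bax null.

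Rxrg passed no test over all cells, while the cell types that held its UMIs differed between groups. Over all cells it stood at 6.85 and 6.81 TMM-scaled CPM in Bax null, 6.60 and 7.43 in het Atoh7 null and 6.54 and 7.11 in double null, with interleaved libraries. Ganglion-labelled cells held 44.9% and 49.1% of the Rxrg UMIs in Bax null and 0.510% to 3.39% in the other 4 libraries. Cones held 39.9% and 38.0% in Bax null and 79.3% to 87.2% in the others. For Thrb the share in cones was 43.5% and 38.1% in Bax null and 60.6% to 71.5% in the others.

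**Figure D5:**
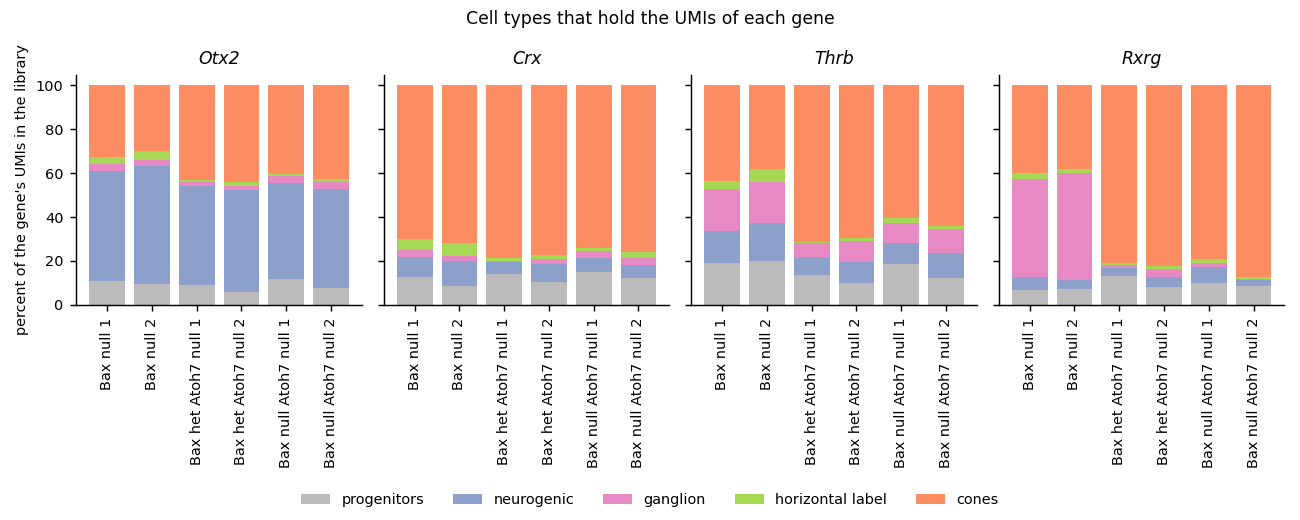
Percent of the UMIs of Otx2, Crx, Thrb and Rxrg that came from each of 5 cell types, with 1 stacked bar per library adding up to 100. Ganglion-labelled cells hold 44.9% and 49.1% of the Rxrg UMIs in Bax null and at most 3.39% in the other 4 libraries, while Crx stays mostly in cones in all 6.

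The wider photoreceptor set was read in 44 further genes, of which 19 passed the filter on low counts in cones. In double null against Bax null 1 was called higher and 6 lower (12.5% and 15.6% of all genes), with a median log2 change of -0.27 over the 19 against 0.04 over all genes. In het Atoh7 null against Bax null 1 was higher and 4 lower (12.7% and 14.8% of all genes, median 0.13 against 0.03), and between the Atoh7 null groups 0 were higher and 2 lower (0.0318% and 1.43% of all genes, median -0.04 against 0.00). Genes of the mature light response ranged widely over all cones: Arr3, the cone arrestin, had 1 UMI, Opn1mw, the medium-wave opsin, had 0 and Opn1sw, the short-wave opsin, had 23, while Gnat2, the alpha subunit of cone transducin, had 574 and Cngb3 had 798.

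Gngt1, the rod counterpart of Gngt2, fell by 2.63 on the log2 scale in double null and by 2.23 in het Atoh7 null, at a plain level of 20.1 and 14.01 CPM in Bax null cones and 3.61 to 5.51 CPM in the others. Impg2, a protein of the matrix between photoreceptors, fell by 1.77 and 1.61, and Samd11 fell by 1.34 and 1.41. Rorb, a nuclear receptor upstream of photoreceptor genes, stood at 945 and 996 plain CPM in Bax null, 1016 and 1175 in het Atoh7 null and 664 and 612 in double null. It fell in double null by 1.15 against Bax null (adjusted p = 5.2e-06) and by 0.88 against het Atoh7 null (adjusted p = 0.0016).

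Neurod4, a proneural factor, stood at 423 and 369, 536.5 and 647, and 390 and 429 plain CPM and fell by 0.51 and 0.64 in the same comparisons (adjusted p = 0.0096 and 0.017). Pdc, which encodes the transducin-binding protein phosducin, fell by 0.65 in double null and by 0.76 in het Atoh7 null. In plain CPM the double null and Bax null libraries overlapped for Pdc, at 262 and 451 against 381 and 367, and for Neurod4. Cngb3, a subunit of the cone channel, rose by 0.57 in double null, from 60.2 and 73.5 to 121 and 176 plain CPM, and Aipl1 rose by 1.56 in het Atoh7 null. Neurod1 (1482 CPM on average in cones), Unc119 (543) and Casz1 (179) were abundant and did not pass in any comparison in cones.

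The genes most like the listed ones were sought over the 30 sums of 5 cell types by 6 libraries, among 5962 genes with at least 20 CPM in cones, by Pearson's r of log2(CPM + 1). Sums of 1 library share its depth, and no p is given. Crx was nearest to Pdc (r = 0.98), Meis2 (0.98) and Lhx4 (0.98), and Gngt2 to Meis2 (0.98), Pdc (0.98) and Rbp3 (0.97). Thrb was nearest to Kif19a (0.98), Grm4 (0.96) and Sez6 (0.95). Otx2 was nearest to Lhx3 (0.93), A930003A15Rik (0.93) and Sez6 (0.90). Within the list the highest r were Crx with Gnb3 (0.98), Gngt2 with Gnb3 (0.98) and Otx2 with Prdm1 (0.97), and the lowest was Otx2 with Rxrg (0.71).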

How the data were processed

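The authors deposited 1 matrix of raw UMI counts per gene and cell (not normalized) with a table of cell type and cluster labels. Cell Ranger 1.2.1 and the mm10 build are named per the submitters' processing notes, and the cell filters are not given in the sources used here. Of 93128 cells, 26078 belong to 2 library names that match no sample and were not used. Counts were summed per library and cell type and tested with edgeR 4.0.16 (quasi-likelihood F test, filterByExpr, TMM, Benjamini-Hochberg adjustment over all genes tested, called at adjusted p under 0.05), with all 6 libraries in 1 fit in R 4.3.3. Errors of log2 changes are standard errors. Alternatives included DESeq2 1.42.0, RLE size factors, no filter, thinning, removal of 8% of cells per library by doublet score (scanpy 1.11.5), and each library left out. Library totals, removal of shared barcodes, unthinned shares and differences between cell types were added after the data were seen. Doublets were kept otherwise. The code was tested on simulated data. Intervals and floors (3 UMIs) cover counting error only, and 2 libraries against 2 allow no exact permutation p below 0.33. The genes named beside the listed 10 were the called photoreceptor genes with the largest changes in cones and those of at least 100 CPM. The members and gene lists were chosen with earlier results of these data known.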

Additional observations from a re-analysis of the deposited data

Results flagged for a closer look

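For several listed genes the change in ganglion-labelled cells differed from the change in cones of the same libraries. The test of the difference was chosen after the data were seen, and both cell types come from the same libraries. In double null against Bax null the log2 change in ganglion-labelled cells minus that in cones was -4.22 for Rxrg (edgeR, adjusted p = 1.7e-16), 1.96 for Crx (adjusted p = 1.8e-05), 2.09 for Prdm1 (adjusted p = 8.6e-06), 1.47 for Otx2 (adjusted p = 6.3e-15) and 1.87 for Gngt2 (adjusted p = 0.00023). In het Atoh7 null against Bax null it was -3.08 for Rxrg (adjusted p = 3.7e-12), 1.85 for Prdm1 (adjusted p = 0.00049), 0.996 for Otx2 (adjusted p = 1.7e-06), 2.41 for Nrl (adjusted p = 0.019) and 1.94 for Gngt2 (adjusted p = 1.0e-06). Nrl did not pass the filter on low counts in ganglion-labelled cells alone, where it had 2 to 7 UMIs per library, so its value rests on few molecules. Rxrg was lower in ganglion-labelled cells and uncalled in cones, Otx2 was higher in ganglion-labelled cells and uncalled in cones, and Prdm1 and Gngt2 were lower in cones.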

How the results depend on the processing

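Across the alternatives, 504 values of called single genes kept their direction and call, 56 lost the call and 4 reversed. The settings differed in this. RLE size factors and no filter on low counts each kept 32 and lost 0. The difference from progenitors of the same library kept 10, lost the call of 8 and reversed 2. On library totals Gngt2 in cones was 0.030 and Prdm1 in neurogenic cells 0.065 in het Atoh7 null against Bax null. Against the progenitors of the same library, Nrl in neurogenic cells was -0.68 (double null) and -0.024 (het Atoh7 null), both against Bax null. The cause was not tested. Of counts of called listed genes, 187 stayed within 1.5 times and 26 moved. On library totals, double null against Bax null gave 7 in cones and 6 in neurogenic cells, het Atoh7 null against Bax null 6 in neurogenic cells, and double null against het Atoh7 null 1 in ganglion-labelled cells. Against progenitors, double null against Bax null gave 4 in cones, 1 in neurogenic cells and 2 in ganglion-labelled cells, and double null against het Atoh7 null 0 in cones. DESeq2 gave 1 in neurogenic cells (het Atoh7 null against Bax null), and thinning gave 3 in ganglion-labelled cells (double null against Bax null). Over all cells, double null against het Atoh7 null gave 0 with only the 4 libraries compared and with shared barcodes left out of both libraries or of replicate 1. Leaving out 1 library gave, for double null and het Atoh7 null against Bax null and for double null against het Atoh7 null in that order, 2 to 4, 1 to 4 and 0 to 2 in cones, 0 to 2, 1 to 4 and 0 in neurogenic cells, 4 to 6, 3 to 5 and 0 in ganglion-labelled cells, and 4 to 6, 5 to 6 and 0 to 1 over all cells. With a replicate block, Gngt2 in cones (het Atoh7 null against Bax null) lost its call (adjusted p = 0.060) and no other called gene did. Deviations of same-numbered libraries correlated by -0.135 to 0.318 over all cells, with no common sign over the 3 pairs of groups. Between double null and het Atoh7 null the correlation was positive throughout. It was 0.0825 in cones, 0.183 in neurogenic cells, 0.137 in ganglion-labelled cells and 0.318 over all cells. The labels do not say whether same-numbered libraries share a litter or day, and the numbers were taken as names only.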
